A study of Mus musculus with 4 samples.

Results

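The mitochondrial ribosomal protein genes are the nuclear genes named Mrpl, for the large subunit, and Mrps, for the small subunit. All rows of the deposited expression table whose symbol was Mrpl or Mrps followed by a number, with at most one letter from a to e, were taken. This gave 78 of 17921 genes, 49 Mrpl and 29 Mrps, and all 78 were matched by gene ID to protein-coding genes of RefSeq (build GRCm38.p6). RNA was sequenced from mouse Th17 cultures (Th17 cells are CD4+ helper cells known for secreting interleukin 17). Naive CD4+ cells had been enriched from 2 PRAK knockout mice (KO) and 2 wild-type mice (WT), then kept for 72 h under Th17 differentiation. Mapkapk5 encodes PRAK, a kinase that acts downstream of p38. Each mouse gave a single library (WT 1, WT 2, KO 1 and KO 2), and the labels give neither the deleted part of the gene, nor the strain, nor the age of the mice.

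The mitochondrial ribosome (mitoribosome) translates the few proteins that the mitochondrial genome encodes, all of them subunits of the respiratory chain or of the ATP synthase. Its RNA comes from mitochondrial DNA, but each of its proteins is made in the cytosol from a nuclear gene and imported. Some of these proteins descend from bacterial ribosomal proteins and others were added in the mitochondrial line. Activated T cells build new mitochondria as they grow and divide, and mitochondrial translation is part of that growth.

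Total expected counts lay between 19417971 and 20125121 per library. The level of Mapkapk5 was 35.6 and 38.4 CPM in the WT libraries and 20 and 21.6 CPM in the KO libraries (CPM, counts per 1000000 with TMM scaling); it fell but was still detected (log2 fold change -0.83, edgeR adjusted p = 0.0194). Of 7 T cell markers, 1 rose, Cd5 (0.94, edgeR adjusted p = 0.014; 0.0996 without WT 1 and 0.190 without WT 2), and the others, Cd3e, Cd4 and Lck among them, did not pass, with sums over the 7 of 2800, 2850, 2490 and 3240 CPM in WT 1, WT 2, KO 1 and KO 2. Of 8 Th17 markers 1 rose, Ccr6 (1.12, adjusted p = 0.00963), and 1 fell, Il23r (-1.77, adjusted p = 0.039; 0.0763 without WT 1 and 0.0721 without WT 2), and their sums were 4680, 4300, 4160 and 2310 CPM, lowest in KO 2. Of the myeloid markers, 7 of 13 tested rose and 0 fell. Their sums over 14 markers were 125, 151, 203 and 382 CPM in WT 1, WT 2, KO 1 and KO 2. In the same order Lyz2 stood at 1.54, 3.08, 12.7 and 64.3 CPM and Mpeg1 at 0.769, 1.15, 13.0 and 18.1. The macrophage marker Adgre1 stood at 0.0513, 0.105, 0.581 and 0.944 CPM. Markers of CD8 T and NK cells summed to 197, 376, 937 and 533 CPM over 10 genes. Of these sums Gzmb alone gave 118, 190, 530 and 201 CPM, and Cd8a 11.8, 49.1, 185 and 104. Klrb1c and Ncr1 had too few counts to be tested. Of the 8 tested 1 rose, Nkg7 (1.96, edgeR adjusted p = 0.0402), and 0 fell. Nkg7 stood at 13.6, 22.7, 45.0 and 96.7 CPM, and its call was lost when either WT library or KO 2 was left out. B cell markers summed to 51.1, 120, 155 and 136 CPM over 8 genes. Of these 1 rose, Ms4a1 (3.43, edgeR adjusted p = 0.0102), and 0 fell. The part of these cell types in the values below was not tested. In bulk RNA, a change in the share of a cell type and a change in RNA per cell cannot be told apart.

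In PRAK KO cells 3 of the 78 genes rose and 0 fell. Mrpl42, Mrpl16 and Mrps6 were each between 1.55 and 1.61 times as high as in WT, a log2 fold change between 0.64 and 0.68 (edgeR quasi-likelihood test, Benjamini-Hochberg adjustment over 12680 genes, adjusted p under 0.05). All 78 genes passed the filter on low counts. The rising share, 3.85%, stands beside the 5.14% of all genes tested that rose, and the falling share, 0 of 78, beside the 8.23% that fell. At an unadjusted p under 0.05 there were 14 members higher (17.9%) and 0 lower, against 15.1% and 16.6% of all genes, and DESeq2 called 4 higher and 0 lower, where it called 7.79% and 10.3% of all genes. The 250 bases before the annotated start of each of the 3 genes are printed here because they precede the members that rose. They are from RefSeq on GRCm38.p6, read 5′ to 3′ in the direction of transcription. Capitals mark matches to the short motifs searched, which are given further on.
Mrpl42 (chr10:95501950-95502199, minus strand): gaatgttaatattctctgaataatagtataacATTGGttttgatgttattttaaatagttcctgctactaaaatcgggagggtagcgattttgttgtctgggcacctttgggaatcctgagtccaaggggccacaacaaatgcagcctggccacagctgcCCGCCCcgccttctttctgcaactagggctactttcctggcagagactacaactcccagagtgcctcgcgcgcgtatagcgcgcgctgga
Mrpl16 (chr19:11770165-11770414, plus strand): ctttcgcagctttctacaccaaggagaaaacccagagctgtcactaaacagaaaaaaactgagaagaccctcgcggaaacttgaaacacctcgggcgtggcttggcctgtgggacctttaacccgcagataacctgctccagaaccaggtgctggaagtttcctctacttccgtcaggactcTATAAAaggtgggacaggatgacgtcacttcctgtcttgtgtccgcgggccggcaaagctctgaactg
Mrps6 (chr16:92058086-92058335, plus strand): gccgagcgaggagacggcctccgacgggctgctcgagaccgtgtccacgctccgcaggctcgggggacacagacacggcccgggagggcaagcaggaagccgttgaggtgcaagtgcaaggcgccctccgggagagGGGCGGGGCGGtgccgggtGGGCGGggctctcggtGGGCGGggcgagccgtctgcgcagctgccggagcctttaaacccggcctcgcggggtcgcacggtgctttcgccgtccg
The Mrps6 sequence held 4 matches to the SP1 motif, at 114, 109, 95 and 79 bases before the start, and a GC content of 74.4%. The Mrpl42 sequence held a match to the SP1 motif 90 bases before the start and to the CCAAT box 218 bases before it, with a GC content of 49.2%. The Mrpl16 sequence held a TATA box 68 bases before the start and none of the other motifs in this window, with a GC content of 52.4%. No motif searched was in all 3 sequences, and the SP1 motif was in those of Mrpl42 and Mrps6. All distances are to the RefSeq start. The GENCODE M21 annotation starts Mrpl16 at 11770391 and Mrps6 at 92058270, inside the printed bases, and Mrpl42 at 95501940, past them.

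Mrpl42 (gene ID 67270, chromosome 10, 95480805 to 95501949), a large subunit protein of the mitochondrial set with no bacterial counterpart, had 46.3 and 45.2 CPM in WT 1 and WT 2, and 73.5 and 68.8 CPM in KO 1 and KO 2. Both KO libraries lay above both WT libraries, and the libraries of a genotype lay close together. KO exceeded WT by 0.64 ± 0.11 (SE) in log2 units (edgeR adjusted p = 0.0250), with a mean of 45.8 ± 0.764 CPM in WT and 71.2 ± 3.35 in KO (SD, n = 2 each). Its 95% interval ran from 0.35 to 0.92, short of a doubling.

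Mrps6 (gene ID 121022, chromosome 16, 92058336 to 92112227), the homologue of bacterial S6, had 36.8 and 36.2 CPM in WT 1 and WT 2, and 63.3 and 52.7 CPM in KO 1 and KO 2. The genotypes did not overlap, and KO 1 was the higher of the KO libraries. KO exceeded WT by 0.67 ± 0.14 (SE) in log2 units (edgeR adjusted p = 0.0349), with a mean of 36.5 ± 0.416 CPM in WT and 58 ± 7.48 in KO (SD, n = 2 each). Exons of Mrps6 overlap those of Slc5a3, a myo-inositol transporter gene, and of Gm49711 in GENCODE M21, by up to 305 bases, so reads there could have been given to another gene. Slc5a3 stood at 32.8 and 34.9 CPM in WT and at 38.8 and 56.7 in KO 1 and KO 2 (log2 fold change 0.50, edgeR adjusted p = 0.161). Both genes were higher in each KO library than in either WT library. The higher KO library was KO 2 for Slc5a3 and KO 1 for Mrps6. How many of the reads of Mrps6 came from the shared exons was not tested.

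Mrpl16 (gene ID 94063, chromosome 19, 11770415 to 11774956), whose bacterial counterpart lies near the peptidyl transferase centre where peptide bonds form, had 18.2 and 16.3 CPM in WT 1 and WT 2, and 29.2 and 26.1 CPM in KO 1 and KO 2. Here too the genotypes did not overlap. KO exceeded WT by 0.68 ± 0.15 (SE) in log2 units (edgeR adjusted p = 0.0426), with a mean of 17.2 ± 1.34 CPM in WT and 27.6 ± 2.19 in KO (SD, n = 2 each). No exon of Mrpl42 or Mrpl16 overlaps another annotated gene.

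The 3 calls were lost when either WT library was left out, which leaves 1 library in that arm, while the fold changes stayed similar. The log2 fold changes of Mrpl42, Mrps6 and Mrpl16 were 0.65, 0.68 and 0.76 without WT 1, and 0.61, 0.65 and 0.60 without WT 2. Without WT 1 the edgeR adjusted p was 0.220 for Mrpl42, 0.211 for Mrps6 and 0.222 for Mrpl16, and without WT 2 it was 0.280, 0.248 and 0.411. In these fits 0 members were called (edgeR), beside 1.59% of all genes higher and 3.87% lower without WT 1, and 1.85% and 3.43% without WT 2. Without KO 1 or KO 2 all 3 remained past the threshold. Over the whole set, 10 members were higher and 3 lower without KO 1, where 17.3% of all genes were called higher and 18.7% lower, and 31 were higher and 5 lower without KO 2, where the shares of all genes were 22.2% and 24.0%. With a library left out, the remaining one of its genotype is assumed to vary as those of the other genotype do.

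**Figure D1:**
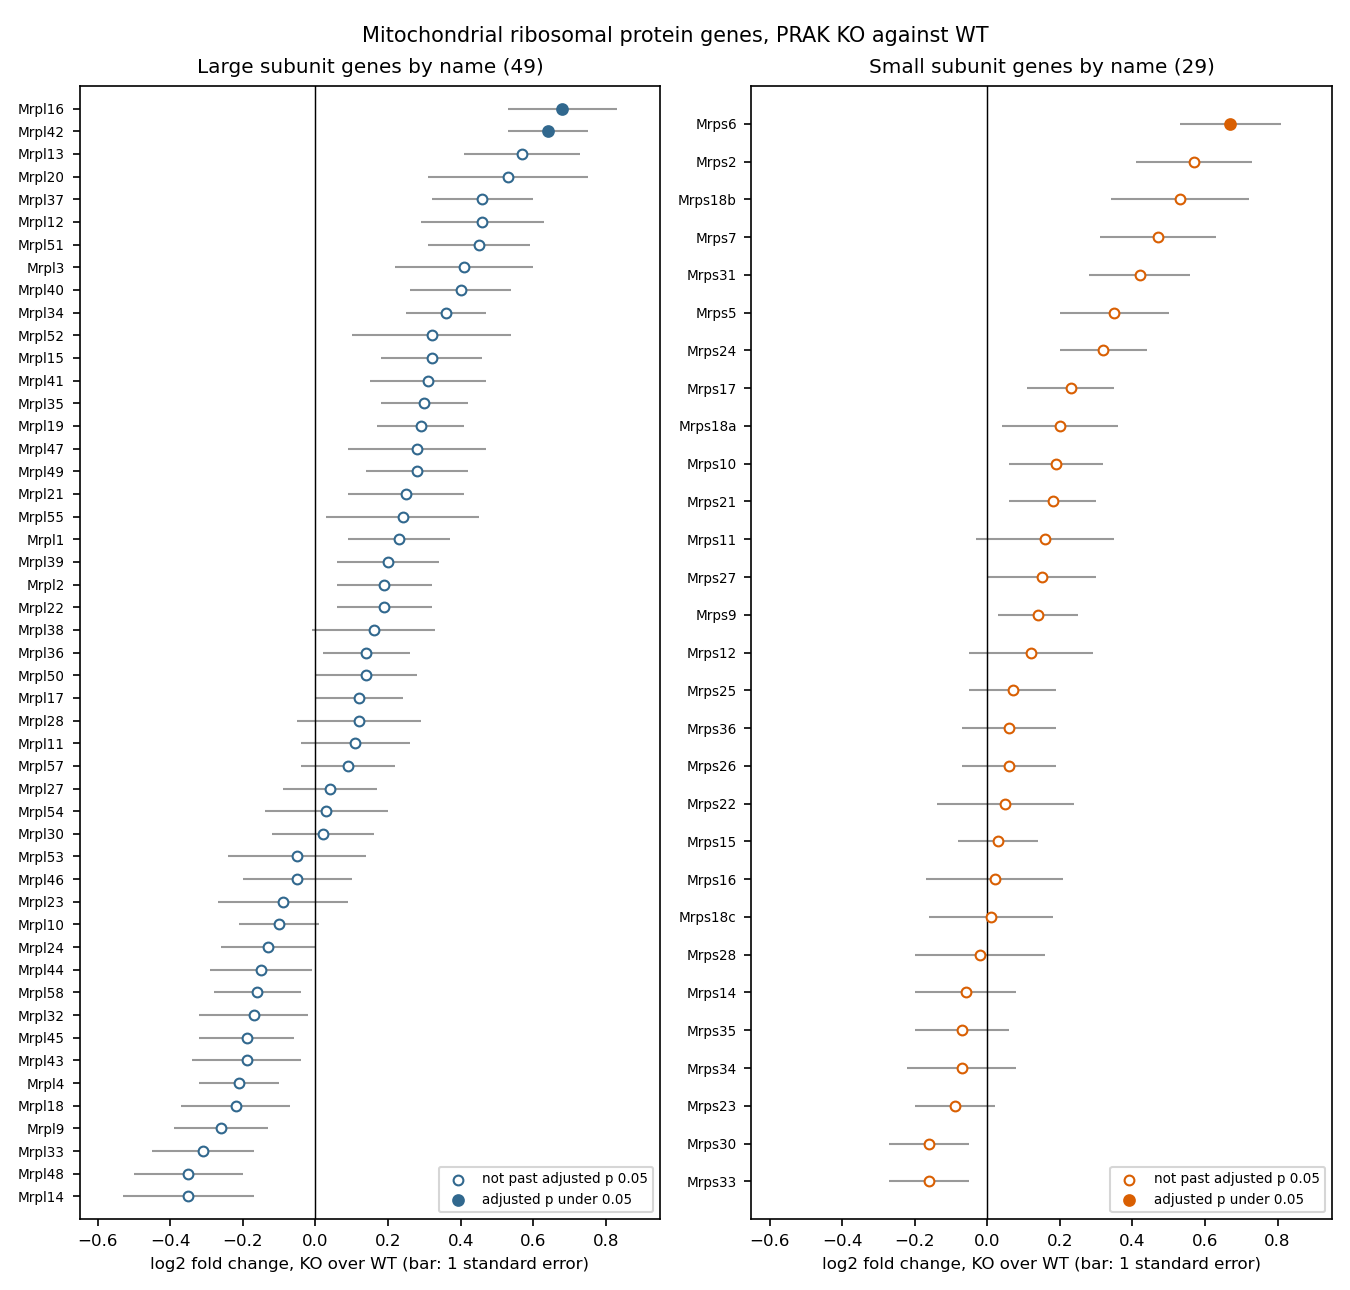
Log2 fold change, KO over WT, of the 49 Mrpl genes (left) and the 29 Mrps genes (right), ordered by value, with bars of 1 standard error; filled points passed an adjusted p of 0.05. Values run from -0.35 for Mrpl14 and Mrpl48 to 0.68 for Mrpl16, and the filled points are Mrpl16, Mrpl42 and Mrps6.

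The other members differed little between the genotypes. The log2 fold changes of all 78 lay between -0.35 and 0.68, with a median of 0.14 and a median standard error of 0.14. Over all genes tested the median was 0.02. The 95% interval lay wholly within a 2-fold change in either direction for 74 of the 78, the exceptions being Mrpl16, Mrpl20, Mrps6 and Mrps18b, which were named for this after their values were seen. The interval did so for 7835 of all 12680 genes tested, whose median standard error was larger, 0.18. The sign was positive for 55 members (70.5%), against 51.8% of all genes tested. With scaling by library size alone the median was 0.24 for the members and 0.12 for all genes, so that the members lay 0.12 above all genes with either scaling. The members' median depended on the KO library, at 0.07 without KO 1 and 0.20 without KO 2.

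In 34 of the 78 both KO libraries lay above both WT libraries, a share of 43.6% where 31.7% of all genes tested did so. In 14 both KO libraries lay below both WT libraries, 17.9% against 31.4% of all genes, and in 30 the genotypes overlapped. These shares describe the set and have no test of their own.

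By subunit, 2 of 49 Mrpl genes (4.08%) and 1 of 29 Mrps genes (3.45%) rose (edgeR), beside 5.14% of all genes tested. In either subunit 0 fell, beside 8.23% of all genes. At an unadjusted p under 0.05 (edgeR) 0 were lower in either, beside 16.6% of all genes. With DESeq2 0 were lower, beside 10.3%. The median log2 fold change was 0.14 for the large subunit and 0.12 for the small one (0.05 and 0.08 without KO 1, where the order turns, and 0.21 and 0.16 without KO 2). The difference between the subunits was not tested. The large subunit spread more widely, from -0.35 to 0.68, than the small one, from -0.16 to 0.67. A pair of proteins carry small subunit names but sit in the large subunit, Mrps30 and Mrps18a, and Mrps36 is a component of the alpha-ketoglutarate dehydrogenase complex and no ribosomal protein. With the subunits set by location the medians were 0.14 over 51 genes and 0.13 over 26, and the counts of rises were again 2 and 1.

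Among large subunit genes the next largest positive values after the called pair were those of Mrpl13 and Mrpl20. Mrpl13 had 26.2 and 28 CPM in WT 1 and WT 2, and 45.2 and 35.0 CPM in KO 1 and KO 2 (log2 fold change 0.57, edgeR adjusted p = 0.0805). It overlaps exons of Mtbp, which stood at 37.3 and 36.5 CPM in WT and 65.2 and 41.8 in KO. Mrpl20 stood at 36.0, 32.0, 59.2 and 38.9 CPM in WT 1, WT 2, KO 1 and KO 2 (0.53, adjusted p = 0.169). Neither passed the test, and in both KO 1 lay well above KO 2.

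Mrpl12 forms the mobile stalk that recruits translation factors to the ribosome. It had 63.7 and 61.0 CPM in WT 1 and WT 2, and 98.8 and 72.2 CPM in KO 1 and KO 2 (log2 fold change 0.46 ± 0.17 SE, edgeR adjusted p = 0.144). The genotypes did not overlap, but the KO libraries were farther apart than KO 2 was from WT. The stalk base proteins Mrpl10 and Mrpl11 had log2 fold changes of -0.10 and 0.11 (adjusted p = 0.559 and 0.638).

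The most negative values belonged to Mrpl14, Mrpl48, Mrpl33 and Mrpl9, and none of them passed. Mrpl14 had 34.3 and 32.2 CPM in WT 1 and WT 2, and 22.3 and 29.8 CPM in KO 1 and KO 2 (log2 fold change -0.35, edgeR adjusted p = 0.239). Mrpl48 stood at 34.1, 39.0, 26.5 and 31.0 CPM in the same order (-0.35, adjusted p = 0.175). In both genes the KO libraries lay below the WT libraries. Exons of Mrpl48 overlap those of Rab6a, a gene of vesicle traffic, by up to 708 bases, and Rab6a fell, from 176 and 181 CPM in WT to 116 and 102 in KO (-0.71, adjusted p = 0.0225). How many of the reads of Mrpl48 came from the shared exons was not tested. Mrpl33 and Mrpl9 had log2 fold changes of -0.31 and -0.26 (adjusted p = 0.196 and 0.240).

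Among the other fixed members of the large subunit, Mrpl45, which anchors the mitoribosome to the inner membrane, stood at 124, 126, 99.5 and 119 CPM in WT 1, WT 2, KO 1 and KO 2 (log2 fold change -0.19, edgeR adjusted p = 0.364). Mrpl58, a peptidyl-tRNA hydrolase that frees stalled ribosomes, stood at 40.0, 42.7, 38.4 and 35.5 CPM (-0.16, adjusted p = 0.406). Mrpl44, a protein related to RNase III, stood at 30, 26.8, 25.2 and 26.1 CPM (-0.15, adjusted p = 0.508). In all 3 both KO libraries lay below both WT libraries, but the 95% intervals of -0.52 to 0.13, -0.46 to 0.14 and -0.49 to 0.19 each include 0.

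In the small subunit, Mrps2 came next after Mrps6. It is the homologue of bacterial S2 and had 40.1 and 39.1 CPM in WT 1 and WT 2, and 67.0 and 50.8 CPM in KO 1 and KO 2 (log2 fold change 0.57 ± 0.16 SE, edgeR adjusted p = 0.0763). DESeq2 called it (adjusted p = 0.0418). Mrps7, a protein of the head of the small subunit, stood at 39.4, 33.4, 55.7 and 45.4 CPM in the same order (0.47, edgeR adjusted p = 0.109). Both genes were higher in each KO library than in either WT library, and KO 1 was again the higher.

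The 3 paralogues of bacterial S18 had values that ranked apart. Mrps18b had 45.3 and 49.2 CPM in WT 1 and WT 2, and 80.5 and 56.4 CPM in KO 1 and KO 2 (log2 fold change 0.53 ± 0.19 SE, edgeR adjusted p = 0.128). Mrps18a stood at 29.3, 29.7, 38.1 and 29.7 CPM (0.20 ± 0.16 SE, adjusted p = 0.443), and Mrps18c at 18.7, 20.1, 17.4 and 21.5 CPM (0.01 ± 0.17 SE, adjusted p = 0.985). The WT and KO libraries overlapped for Mrps18a and Mrps18c but not for Mrps18b. The intervals of the 3 overlap each other, and a difference between the paralogues was not tested.

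Mrps12, a protein of the decoding centre, had 28.9 and 23.7 CPM in WT 1 and WT 2, and 30.7 and 26.4 CPM in KO 1 and KO 2 (log2 fold change 0.12, edgeR adjusted p = 0.666). Mrps36 stood at 25.8, 26, 27.0 and 27.0 CPM (0.06, adjusted p = 0.786). Mrps30 stood at 63.4, 65.2, 59.5 and 55.9 CPM (-0.16, adjusted p = 0.391). The genotypes overlapped for Mrps12, and for Mrps36 and Mrps30 they were separate but close. Mrps33, Mrps23 and Mrps34 had the other lowest values of the small subunit, at -0.16, -0.09 and -0.07 (adjusted p = 0.378, 0.623 and 0.772), where those of Mrps23 and Mrps34 turn to 0.01 and 0.02 with scaling by library size alone. Exons of Mrps34 overlap those of Mapk8ip3, a gene that fell (-0.80, adjusted p = 0.0277), and of Nme3 (0.04).

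**Figure D2:**
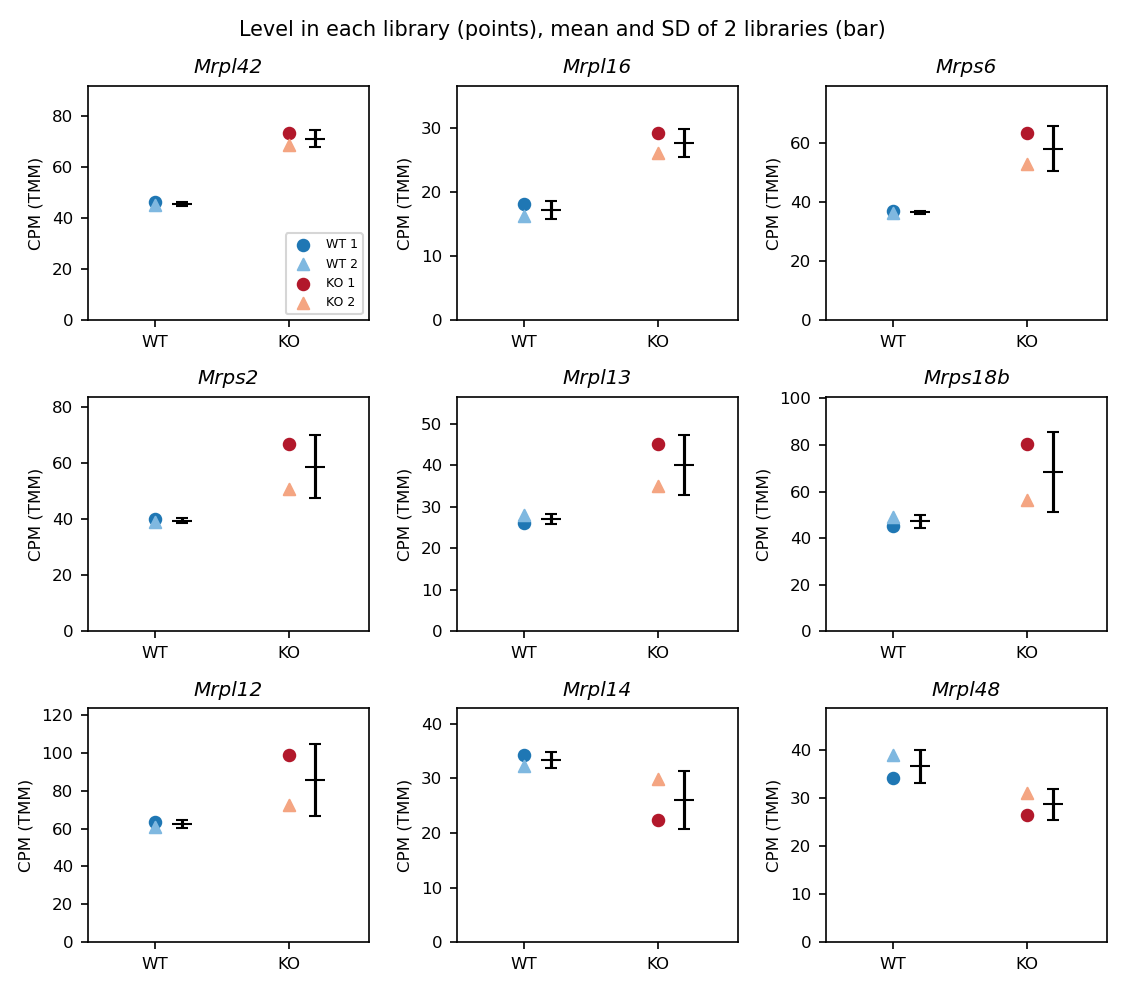
CPM with TMM scaling of 9 members in each library (circles, mouse 1; triangles, mouse 2), with the mean and SD of the 2 libraries of a genotype beside them; axes start at 0. For Mrpl42 the KO libraries are at 73.5 and 68.8 CPM and the WT libraries at 46.3 and 45.2, while for Mrpl12 and Mrps18b KO 1 stands well above KO 2.

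The 2 KO libraries differed from each other in this set. Of the 78 members, 55 were higher in KO 1 than in KO 2 (70.5%), where 49.8% of all genes tested were. The median difference KO 1 minus KO 2 was 0.15 in log2 CPM for the members and 0.00 for all genes. WT 1 was higher than WT 2 in 37 of the 78, with a median difference of -0.01. Against the WT mean, the median member lay 0.21 higher in KO 1 and 0.07 higher in KO 2, and for all genes tested both values were 0.01. Both KO libraries lay above the WT mean for 42 members and below it for 17, KO 1 alone lay above it for 14 and KO 2 alone for 5.

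Other genes moved with this difference between the KO libraries. All 12 proliferation genes of the fixed list (Mki67, Top2a, Mcm2 and others) were higher in KO 1 than in KO 2, by a median of 0.41 in log2 CPM. The WT libraries differed in these genes too, with 11 of the 12 higher in WT 1 than in WT 2, by a median of 0.13. Their sums were 3880, 3630, 4260 and 3230 CPM in WT 1, WT 2, KO 1 and KO 2. Between the genotypes 1 of the 12 rose, Tyms (1.01, edgeR adjusted p = 0.0102), 8.33% beside 5.14% of all genes tested, and 0 fell. The genes of the cytosolic ribosome went the other way, with 2 of 82 higher in KO 1 and a median difference of -0.51. In WT, 13 of the 82 were higher in WT 1, with a median difference of -0.11. Mrpl52 broke with the majority, at 46.6 CPM in KO 1 and 68.6 in KO 2, against 41.3 and 51.0 in WT 1 and WT 2. The part of proliferation in the levels of the members was not tested.

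**Figure D3:**
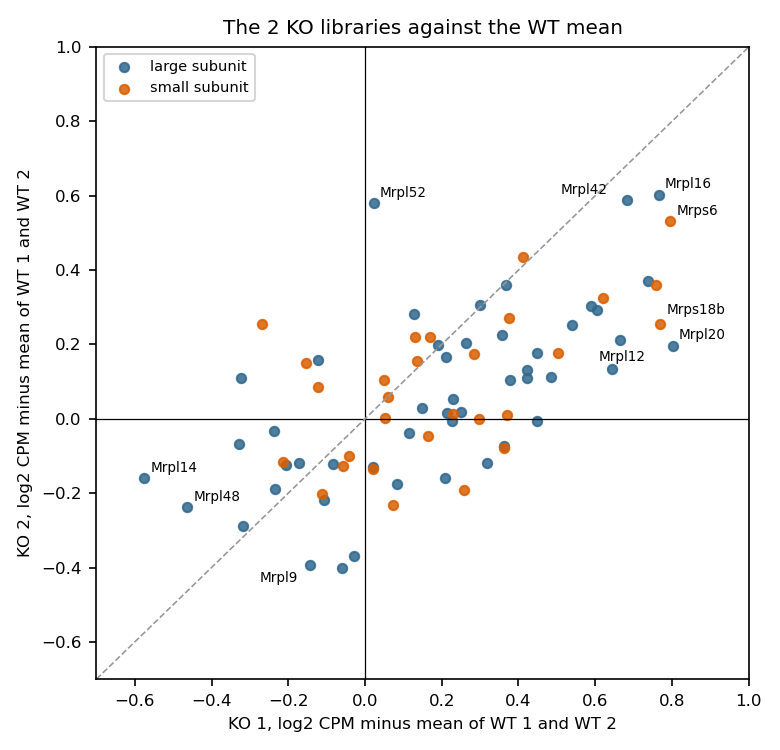
Each point is a member gene, with its log2 CPM in KO 1 (horizontal) and in KO 2 (vertical) minus the mean of the WT libraries; the dashed line marks equal values and colours mark the subunit. Most points lie below the dashed line, 55 of 78, and 42 lie above 0 on both axes.

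Levels were compared between genes per transcript length, in the deposited TPM (transcripts per 1000000). The mean TPM over the 4 libraries ran from 15.7 to 256 over the 78 genes, a 16.3-fold range, with a median of 69.9, although most subunits are thought to be present once in each ribosome. Of the 78, 55 lay within 2-fold of that median. The medians of the subunits were 69.0 for the large and 71.3 for the small. Across the 78 genes, log2 TPM correlated between WT 1 and WT 2 with Pearson r = 0.992, between KO 1 and KO 2 with r = 0.963, and between the genotypes with r from 0.929 to 0.969. These are correlations across genes that share libraries and gene models.

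By the mean over all 4 libraries, the highest levels of the large subunit were those of Mrpl52, Mrpl30 and Mrpl42. Mrpl52 had 200, 239, 246 and 339 TPM in WT 1, WT 2, KO 1 and KO 2, and Mrpl30 had 168, 176, 175 and 200. Mrpl42 had 128, 122, 225 and 196 TPM, and its KO libraries were the higher ones; by mean TPM it had rank 4 of 78, while its WT mean of 125 TPM lay below those of Mrpl33 (171), Mrpl4 (160), Mrpl23 (157), Mrpl24 (145) and Mrpl18 (140). By the same mean, in the small subunit Mrps21 led, with 152, 160, 196 and 190 TPM, followed by Mrps16 with 138, 138, 127 and 170 and Mrps6 with 89.9, 85.7, 169 and 131. Mrps21 was above Mrps16 in each library, and both KO libraries of Mrps6 lay above its WT libraries. In WT alone Mrps6 (mean 87.8 TPM) lay below Mrps15 (107).

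The lowest levels were those of Mrpl17 (mean 15.7 TPM), Mrpl35 (16.4), Mrps25 (16.9) and Mrpl19 (17.1), close enough that neighbours in this order overlap across libraries. Mrps31 (26.1) and Mrps27 (34.0) completed the 3 lowest of the small subunit. Mrps31 stood at 18.2 and 17.6 CPM in WT and at 23.8 and 24.2 in KO (log2 fold change 0.42, edgeR adjusted p = 0.105). Several of these genes are low only per length. Mrps25 was at 53.7 CPM in WT, rank 17 of 78 by CPM and 76 by TPM, and Mrpl17 ranked 14 by CPM and 78 by TPM. Exons of Mrps25 overlap those of Nr2c2 by up to 4590 bases, and the authors' transcript lengths were not seen here, so the order by TPM depends on them.

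**Figure D4:**
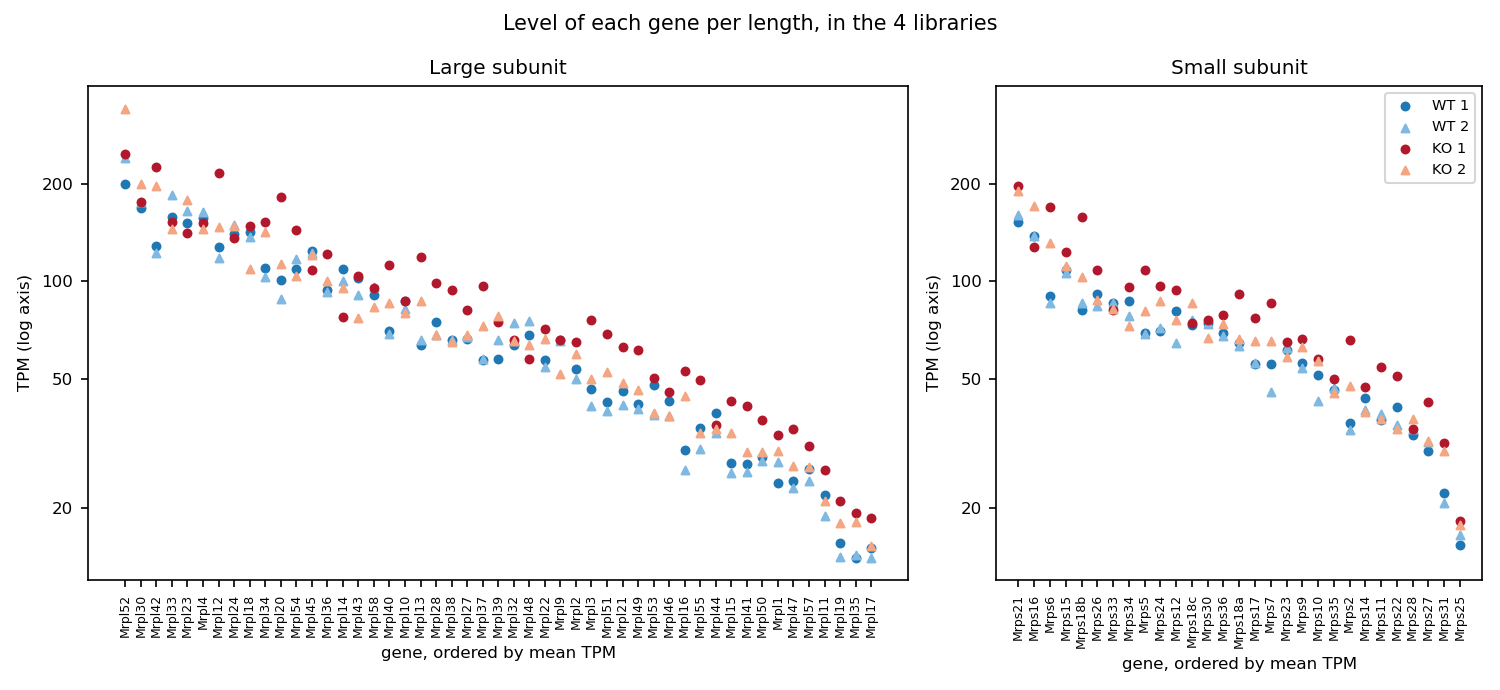
Deposited TPM (log axis) of each large subunit gene (left) and small subunit gene (right) in the 4 libraries, ordered by the mean of the 4. Levels fall from a mean of 256 TPM for Mrpl52 to 15.7 for Mrpl17, and KO 1 is the uppermost point in most genes.

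Summed over all members the TPM reached 5576 and 5533 in the WT libraries and 6891 and 6101 in KO 1 and KO 2, between 0.553% and 0.689% of all transcripts. Both KO sums lay above both WT sums, and the KO mean was 1.17 times the WT mean. In CPM with TMM scaling the sums were 3117, 3154, 3569 and 3274, and the KO mean was 1.09 times the WT mean. Deposited TPM has no TMM scaling. With library size alone, the median change over all genes tested was 0.12 in log2 units, against 0.02 with TMM. In WT 1, WT 2, KO 1 and KO 2, respiratory chain subunits summed to 20700, 20400, 21700 and 21700 TPM. In CPM they summed to 9450, 9440, 9170 and 9370. Sums of the cytosolic ribosome overlapped between the genotypes in both units. How much of the 1.17 was shared with other genes was not tested. The large subunit summed to 1.91, 1.96, 1.84 and 1.89 times the small subunit in WT 1, WT 2, KO 1 and KO 2, in TPM. Both KO ratios of sums lay below both WT ratios, with a mean of 1.94 ± 0.0354 in WT and 1.86 ± 0.0354 in KO (SD, n = 2 each). With subunits by name, the ratio of their medians was 0.989, 1.04, 0.988 and 0.994 in TPM and 1.02, 1.07, 1.2 and 0.949 in CPM, where the genotypes overlapped. With 2 libraries against 2 no p is given for these sums.

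By origin, 48 members have bacterial homologues and 29 were added in mitochondria, as assigned from general knowledge and leaving out Mrps36. Of the first, 2 rose (4.17%), with a median log2 fold change of 0.18, and 37 were above 0 (77.1%). Of the second, 1 rose (3.45%), with a median of 0.06, and 17 were above 0 (58.6%). Of all genes tested 5.14% rose and 51.8% were above 0, with a median of 0.02. Both KO libraries lay above both WT libraries in 52.1% of the homologues and 27.6% of the additions, beside 31.7% of all genes tested. The difference between the 2 classes was not tested.

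Lists of other genes needed to build and use the mitoribosome were counted in the same way. Beside each count stand the 5.14% of all genes tested that rose and the 8.23% that fell (edgeR). Of 6 proteins of the ribosome or its membrane anchor with other names 0 passed (edgeR; 2 higher and 1 lower at an unadjusted p under 0.05, and 1 higher and 1 lower with DESeq2). Among them the small subunit GTP-binding protein gene Dap3 stood at 111 and 115 CPM in WT and 88.1 and 66.6 in KO (-0.55, adjusted p = 0.0816), and the large subunit gene Gadd45gip1 at 48.9 and 44.2 in WT and 75.9 and 62.7 in KO (0.57, adjusted p = 0.0566). The genotypes did not overlap in either gene, with KO lower for Dap3 and higher for Gadd45gip1. Of 29 assembly factors 1 rose, with a median of 0.19: Tfb1m, which methylates the small subunit RNA, stood at 5.49 and 5.70 CPM in WT and 9.97 and 10.7 in KO (0.88, edgeR adjusted p = 0.0458; 0.375 without WT 1 and 0.374 without WT 2).

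Of 25 genes of mitochondrial DNA expression 2 fell, 8% beside 8.23% of all genes tested, and 0 rose, beside 5.14% (edgeR). At an unadjusted p under 0.05 (edgeR) 3 were higher and 3 lower, beside 15.1% and 16.6% of all genes. DESeq2 called 1 higher and 2 lower, beside 7.79% and 10.3% of all genes. Grsf1, an RNA-binding protein of mitochondrial RNA granules, went from 98.1 and 103 CPM in WT to 65.6 and 63.5 in KO (-0.64, adjusted p = 0.0230), and Fastk from 129 and 136 to 95.7 and 96.8 (-0.46, adjusted p = 0.0473). Both calls were lost without a WT library (adjusted p = 0.162 and 0.345 without WT 1, 0.246 and 0.519 without WT 2). Of 20 mitochondrial tRNA synthetase genes and 11 translation factor genes none passed (edgeR; at an unadjusted p under 0.05, 2 higher and 2 lower, and 2 higher and 0 lower; with DESeq2, 0 and 1). The medians were 0.02 and 0.01.

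Among 12 mitochondrial proteases and chaperones 1 rose and 2 fell, 25% beside 13.4% of all genes tested. Afg3l2, a subunit of the m-AAA protease that matures Mrpl32 before it joins the large subunit, went from 214 and 224 CPM in WT to 104 and 98.8 in KO (-1.11 ± 0.11 SE, edgeR adjusted p = 0.00604). Both KO libraries lay below 0.5 times the WT libraries, and the call held without any 1 library (adjusted p = 0.0115 without WT 1 and 0.0139 without WT 2). Lonp1, the main protease of the matrix, went from 351 and 352 CPM to 190 and 126 (-1.16, adjusted p = 0.0267), and Clpp, a matrix protease linked to mitoribosome assembly, rose from 31.3 and 30.7 to 54.1 and 48.8 (0.73, adjusted p = 0.0212; 0.158 without WT 1 and 0.190 without WT 2). Mrpl32 itself stood at 25.6 and 30.8 CPM in WT and 24.3 and 25.7 in KO (-0.17, adjusted p = 0.490).

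Of 31 import genes 1 rose, Dnajc15 (0.60, edgeR adjusted p = 0.0473; 0.426 without WT 1 and 0.260 without WT 2), and the median was 0.07. The share of import genes that rose, 3.23%, stands beside 5.14% of all genes tested. Of 14 nuclear regulators of mitochondrial genes 0 passed, beside 13.4% of all genes tested (edgeR). At an unadjusted p under 0.05 (edgeR) 3 were higher and 1 lower, and DESeq2 called 2 higher. Nrf1, Gabpa and Yy1, factors known for binding promoters of mitochondrial protein genes, had log2 fold changes of 0.16, 0.01 and -0.03, and Myc 0.00. Pprc1, a coactivator of the PGC-1 family, stood at 125 and 110 CPM in WT and 222 and 163 in KO (0.71, adjusted p = 0.0583). It did not pass, although its genotypes did not overlap. Of the same family, Ppargc1b had a log2 fold change of 0.75 (edgeR adjusted p = 0.09). Ppargc1a went the other way, at low levels of 0.923 and 1.1 CPM in WT and 0.194 and 0.348 in KO (-1.88, edgeR adjusted p = 0.0677).

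Beside the members stand 2 related sets. The 82 cytosolic ribosomal protein genes tested had a median log2 fold change of -0.07, with 3 higher and 1 lower, and 28% were above 0. The 90 genes tested that are named as respiratory chain and ATP synthase subunits had a median of 0.02, with 2 higher and 2 lower. Of these 57.8% were above 0, and the values ran from -4.45 to 1.98. This set was chosen by the start of the symbol, such as Nduf or Uqcr, so assembly factors with such names were not excluded. The share called was 4.88%, 4.44% and, for the mitochondrial ribosome, 3.85%, against 13.4% of all genes tested. Differences between the sets were not tested.

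**Figure D5:**
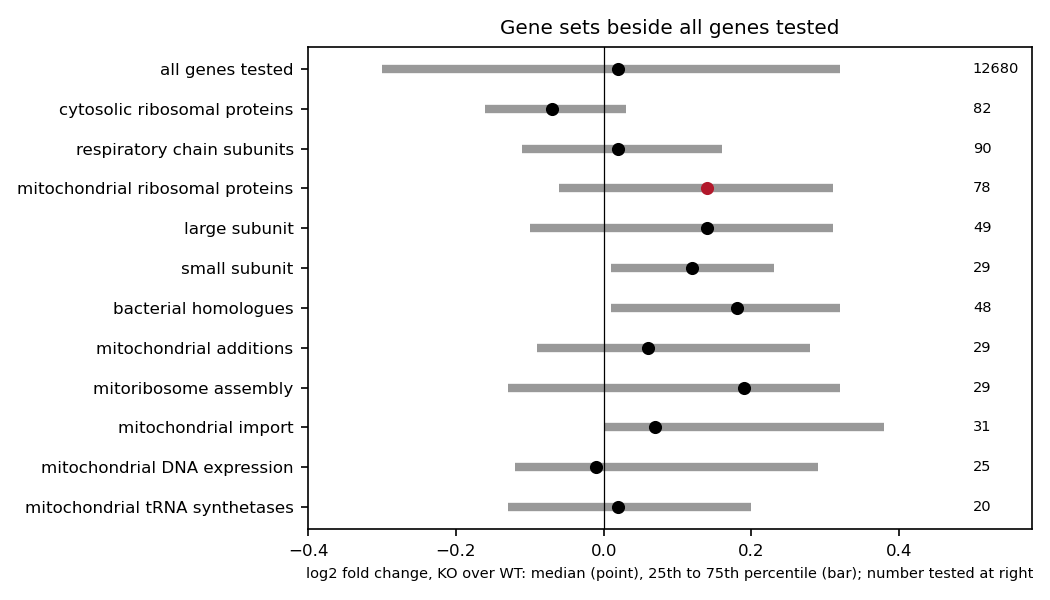
Median log2 fold change, KO over WT (points), and the range from the 25th to the 75th percentile (bars) for all genes tested, the members and related sets, with the number of genes at the right. The members' median of 0.14 stands beside 0.02 for all genes and -0.07 for cytosolic ribosomal proteins.

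The members are spread over 17 chromosomes, with the most, 11, on chromosome 11. In GENCODE M21 a protein-coding gene starts on the other strand within 1000 bases upstream of 18 of the 78 (23.1%), where 10.3% of the protein-coding genes tested have such a neighbour. Of 17 such neighbours that were tested 0 passed (edgeR; 5 at an unadjusted p under 0.05, and 0 with DESeq2). The signs of the log2 fold changes were both positive in 8 pairs, both negative in 1 and opposite in 8. Mrps18b and Ppp1r10, whose starts lie 45 bases apart, had 0.53 and 0.36. Mrpl51 and Ncapd2, 100 bases apart, had 0.45 and -0.27. Exons of 23 members overlap those of another protein-coding gene, among them Mrpl46 and Mrps11, which overlap each other by 173 bases and had -0.05 and 0.16 (-0.05 turns to 0.05 with scaling by library size alone). Since strand is not stated, reads in such overlaps are uncertain. RefSeq also holds 6 pseudogenes named after members, 3 of them after Mrps36, so that reads of Mrpl23, Mrpl27, Mrpl48 and Mrps36 could have been shared with near copies.

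Promoter sequences, from 250 bases before to 50 bases after an annotated start, were held by the RefSeq table for 69 of the 78 genes, 75 sequences in all. They were searched on both strands for GCGCATG (NRF1), CCGGAAG (ETS factors such as GABP), AAGATGG (YY1), GGGCGG (SP1), CACGTG (the E-box bound by MYC), CCAAT and TATAAA. These motifs do not contain one another. The ETS motif was in 34.7% of the members' sequences, against 17.1% of those of the genes tested and 8.86% of all promoters. The YY1 motif was in 17.3%, against 6.96% and 6.34%, and the NRF1 motif in 10.7%, against 6.69% and 3.91%. The SP1 motif was in 52.0%, against 60.9% and 35.7%. For the E-box (9.33%, against 9.79% and 7.15%), CCAAT (40.0%, against 37.9% and 37.4%) and TATAAA (6.67%, against 7.13% and 13.6%) the members lay near the genes tested. Cytosolic ribosomal protein promoters held the ETS motif in 35.1% and the YY1 motif in 16.2%. Among the 3 genes that rose, none held the ETS or NRF1 motif in the 250 bases printed above, and a match to the YY1 motif lay past the start of Mrpl42. A match describes the letters and not binding.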

How the data were processed

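The deposited table gives, per the file headers, an expected count, an FPKM and a TPM for each gene in each of 4 libraries. An expected count, as deposited, is an unscaled estimate and need not be whole. The deposited FPKM is scaled for transcript length and depth, and the deposited TPM sums to 1000000 per library. RSEM 1.2.12, Bowtie2 2.2.5, HISAT2 2.0.4 and the build GRCm38.p6 are listed in the submitters' processing notes; their roles and the strand, annotation and read filters were not stated in the labels. RSEM divides reads of near-identical genes by a model.

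Counts were rounded, filtered with filterByExpr (minimum count 10, minimum total 15; 12680 of 17921 genes kept) and TMM-scaled. KO was compared with WT in edgeR 4.0.16 (R 4.3.3) by the robust quasi-likelihood test over all genes, with Benjamini-Hochberg adjustment and a threshold of 0.05. Standard errors came from the fold change and F; 95% intervals used 5.58 degrees of freedom. Members' counts lay between 209 and 2421 per library; depth and the 2 mice per genotype limit precision. Each library is 1 mouse, so p-values measure the spread between these mice and cultures. The steps were tested on simulated data with log2 fold changes of 1 and 2 in either direction. Those are larger than the fitted change of any member, so recovery of changes of the members' size was not tested. FPKM served only as an alternative unit for the sums. The alternatives were DESeq2 1.42.0, other scalings, no filter, the mouse number as a block, subunits by location and leaving out each library.

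The members and gene lists were chosen with earlier results of these data known. Named members were those past the threshold, the 4 largest changes in each direction and the 3 highest and 3 lowest TPM in each subunit, and 10 fixed genes; of other lists up to 4 genes past the threshold in each direction. Other members and genes named, and the neighbours, were chosen after their values were seen.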

Additional observations from a re-analysis of the deposited data

How the results depend on the processing

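The direction of the 3 members that rose was the same under every alternative run, and DESeq2 size factors in edgeR and no filter on low counts left every count within 1.5 times. The mouse number also served as a replicate block. The differences between mouse 1 and mouse 2 in KO and in WT had a correlation of 0.175 across 12680 genes. With only 2 pairs this cannot decide whether mice of the same number were paired, and the labels do not say. With the block 1338 genes (10.6%) were higher and 1597 (12.6%) lower, 10 members were higher, 7 of them of the large subunit and 3 of the small, and 0 were lower (edgeR). DESeq2 called 988 genes higher, and 2 members of the small subunit. With library size alone the median log2 fold change was 0.24 for all members and 0.21 for the small subunit, and 8 members changed sign. Leaving out 1 library at a time gave from 209 to 2881 genes higher and from 450 to 3118 lower, from 0 to 31 members higher and from 0 to 5 lower, from 0 to 20 large subunit members higher and from 0 to 5 lower, and from 0 to 11 small subunit members higher; the medians ran from 0.07 to 0.20 for all members, 0.05 to 0.21 for the large and 0.08 to 0.16 for the small subunit. The ratio of the large to the small subunit in WT 1, WT 2, KO 1 and KO 2 was 2.00, 2.03, 1.92 and 1.95 with sums of CPM, and 2.22, 2.29, 2.13 and 2.16 with subunits by location, lower in KO in both; ratios of medians by location were 1.10, 1.12, 1.01 and 1.02 in TPM and 1.01, 1.07, 1.16 and 0.946 in CPM. The cause of these moves was not tested. Lower counts leave larger standard errors, and 2 mice per genotype set the degrees of freedom.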
